A study of Mus musculus with 3 samples.

Results

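The cytosolic ribosomal protein genes were examined in the transcriptome of melan-a cells, an immortalized line of mouse melanocytes. Members were the protein-coding genes whose mouse symbol names a protein of the large subunit (Rpl followed by a number, and the stalk proteins Rplp0, Rplp1 and Rplp2) or of the small subunit (Rps followed by a number, and Rpsa). The rule reads symbols only and uses no expression value. It found 83 members among the 22698 genes in the tables, 51 of the large and 32 of the small subunit.

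There was a single group of 3 samples, melan-a replicates 1, 3 and 4. The labels give melanocytes from Ink4a-ARF-/- mice on a C57BL/6J background, with treatment given as none. All replicates therefore lack the Ink4a-ARF locus, which encodes the cell-cycle inhibitor p16 and the p53 activator ARF. All were grown in RPMI 1640 with 10% fetal bovine serum, 200 nM 12-O-tetradecanoylphorbol 13-acetate (a phorbol ester that activates protein kinase C) and 200 pM cholera toxin (which raises cyclic AMP), so none of these additions varied. With no second condition, the comparisons below are between genes and between replicates. No test between groups was possible, and an exact two-sided sign-flip test over 3 libraries cannot go below p = 0.25.

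Ribosomal proteins assemble with ribosomal RNA into the small subunit, which decodes the message, and the large subunit, which joins amino acids. Most are present as a single copy per ribosome, while the acidic stalk proteins P1 and P2 are present in several copies on a P0 base. Their messages typically begin with a C followed by a run of pyrimidines, the 5′ terminal oligopyrimidine (TOP) tract, through which mTORC1 and LARP1 control their translation. In mice, mutations in several of these genes alter coat or skin pigmentation, and the mammalian genome carries many processed copies of ribosomal protein messages.

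The annotated starts of several members carry such a tract. In the RefSeq promoter windows of build GRCm38.p6, 63 of the 83 members were matched by symbol. A C followed by at least 4 pyrimidines stood at an annotated start of 13 of these 63 (20.6%), beside 3.01% of all 27025 genes with such a window. The windows of 9 of the 13 are shown from 10 bases before the start to 20 bases from it on, as examples of the letters by which these messages are recognised, with the pyrimidines that follow without a break from the annotated start on in capitals.
Rpl35: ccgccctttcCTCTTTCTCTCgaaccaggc
Rpl14: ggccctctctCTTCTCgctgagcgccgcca
Rpl28: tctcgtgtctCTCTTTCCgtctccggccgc
Rpl38: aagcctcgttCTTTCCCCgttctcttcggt
Rplp2: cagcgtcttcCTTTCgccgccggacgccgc
Rps6: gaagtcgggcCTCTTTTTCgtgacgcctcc
Rps27: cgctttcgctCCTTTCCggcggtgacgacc
Rps10: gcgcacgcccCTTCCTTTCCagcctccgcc
Rps18: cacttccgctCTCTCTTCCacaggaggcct

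These windows lie at chr2:39005112-39005141 (minus strand, Rpl35), chr9:120571507-120571536 (plus, Rpl14), chr7:4792955-4792984 (plus, Rpl28), chr11:114668570-114668599 (plus, Rpl38), chr7:141447641-141447670 (plus, Rplp2), chr4:86857348-86857377 (minus, Rps6), chr3:90213629-90213658 (minus, Rps27), chr17:27635225-27635254 (minus, Rps10) and chr17:33955646-33955675 (minus, Rps18). Counted from the annotated start on, the tracts ran from 5 bases in Rplp2 to 11 bases in Rpl35. In all 9 windows the base before the annotated start was also a pyrimidine, and the whole unbroken run, in lower case before the start, was 9 bases in Rps27, 10 in Rplp2 and 18 in Rpl35. A tract beginning a few bases away from an annotated start does not count in this search. Among members outside the paralog list given further on, the 13 with a tract had mean levels from 1.54 to 199 FPKM and a median of 20.8 FPKM, and the 43 without one had levels from 0.78 to 903 FPKM and a median of 36.3 FPKM. The ranges overlapped over most of their width.

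Other letters were searched on both strands of the 300-base windows. The ETS core CCGGAAG was found in 25 of 63 members (39.7%) and in 9.93% of all genes. The GC box GGGCGG was found in 39 members (61.9%) and in 38.2% of all genes. The YY1 letters AAGATGG were found in 10 members (15.9%) and in 7.28% of all genes. TATAAA occurred in 7 members (11.1%) and in 15.7% of all genes. For the factors of melanocyte biology, the AP-2 letters GCCNNNGGC were found in 11 members (17.5%) and 18.5% of all genes, the E-box CATGTG in 7 members (11.1%) and 15.9%, and the E-box CACGTG in 6 members (9.52%) and 8.09%. No motif contains another, several may overlap at their ends, and a match is only a match of letters.

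Levels were given as FPKM, fragments per kilobase of gene scaled to the library size, so that genes can be compared per length. From the steps between low values, the scaled library sizes were estimated at 53800000 reads for replicate 1, 46900000 for replicate 3 and 66300000 for replicate 4. A gene with 1 kb of joined exons would then be listed at 0.056, 0.064 and 0.045 FPKM with 3 reads. These estimates and floors cover counting error only. The cells carried the markers of their labelled type: 11 of 12 melanocyte markers were at 1 FPKM or more in all replicates, led by Tyrp1 (a melanin synthesis enzyme, mean 3144 FPKM), and the exception was the receptor Kit (mean 0.68 FPKM). The keratinocyte markers summed to between 0.36 and 0.70 FPKM per replicate, the fibroblast markers to between 1.61 and 1.95, the immune markers to between 0.76 and 1.60 and the endothelial markers to 0.01, with Krt1 and Ptprc listed at 0 in every replicate. In RNA from a whole culture, fewer cells of a type and less RNA per cell cannot be told apart.

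Members together held 3.70% of the summed FPKM of all genes in replicate 1, 3.98% in replicate 3 and 3.48% in replicate 4 (mean 3.72% ± 0.25, SD, n = 3). The share was highest in replicate 3 and lowest in replicate 4. Mitochondrially encoded genes went the other way, with 10.6%, 9.52% and 11.3% of the summed FPKM. Whether their share moved the share of the members was not tested, and with them left out of the total the members held 4.15%.

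Although the proteins are needed in near equal numbers, the listed levels of their messages were far apart. Replicates 1, 3 and 4 had a median member at 45.4, 44.0 and 44.1 FPKM, beside a median of 11.2, 11 and 11.1 FPKM over the 10011 genes at 1 FPKM or more in all replicates. Mean levels of the 79 members that passed this minimum ran from 1.54 to 2007 FPKM, a ratio of 1301. On the log2 scale with 1 FPKM added, the SD among all 83 members was 2.65, 2.70 and 2.55 in replicates 1, 3 and 4, beside 1.69, 1.75 and 1.63 among the 10011 genes. The minimum of 1 FPKM applies to the 10011 genes but not to the 83 members. For the mean over replicates, the SD was 2.63 among the 83 members and 2.40 among the 79 that passed the minimum.

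Of the 83 members, 37 (44.6%) were among the 1000 genes with the highest mean FPKM, a list that by its size holds 4.41% of all genes. The last member inside was Rpl3 (74.0 FPKM, rank 874) and the next outside was Rpl22 (64.9 FPKM, rank 1022). Means were at 500 FPKM or more for 9 members, between 100 and 500 for 20, between 10 and 100 for 34, between 1 and 10 for 16 and under 1 for 4. A few genes thus held most of the signal: the 10 members with the highest means held 57.6%, 59.3% and 56.4% of the members' summed FPKM.

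**Figure D1:**
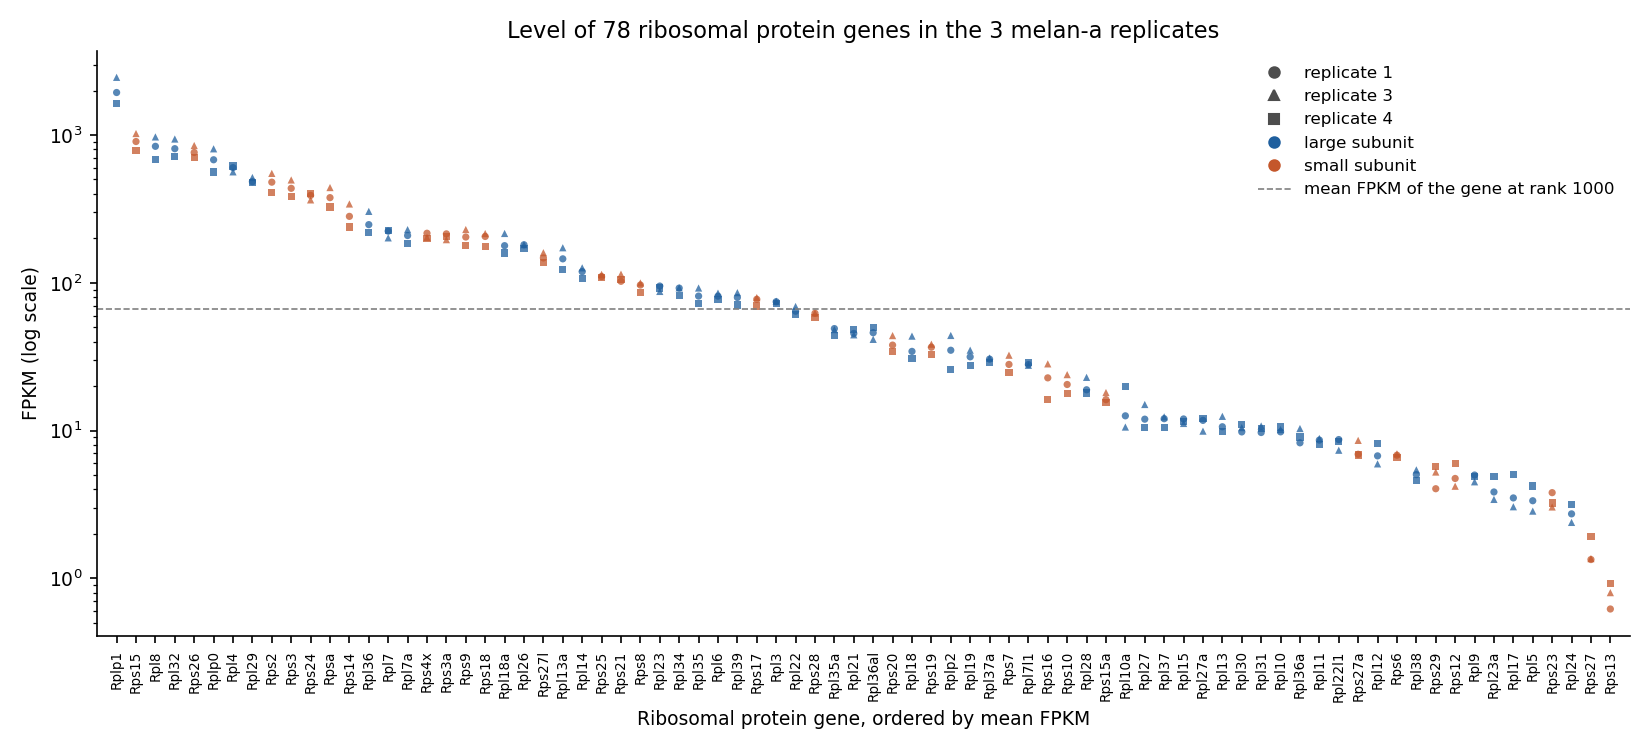
FPKM on a log scale of 78 of the 80 members with a mean above 0.5 FPKM, ordered by mean, with a symbol for each of the 3 replicates, colours for the subunit and a dashed line at the mean level of the gene at rank 1000 (66.0 FPKM). The levels run from Rplp1 (mean 2007 FPKM), apart from the next member Rps15 (903 FPKM), to Rps27 (1.54 FPKM) and Rps13 (0.78 FPKM), both subunits span the range, and the replicates of a gene lie close together beside the distance between genes.

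The 10 highest members came from both subunits, and 8 of them are described. Rplp1, the acidic stalk protein that helps recruit elongation factors, was at 1939, 2457 and 1625 FPKM in replicates 1, 3 and 4 and ranked 15 among all genes. Rps15, a protein of the head of the small subunit, was at 904, 1023 and 782 FPKM. Rpl8, which lies near the peptidyl transferase centre, was at 838, 971 and 680 FPKM. In each of these genes replicate 3 was the highest and replicate 4 the lowest.

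Rpl32, a structural protein of the large subunit, was at 808, 939 and 712 FPKM. Rps26, which lines the mRNA exit channel, was at 762, 849 and 707 FPKM. Rplp0, the base of the stalk, was at 680, 807 and 561 FPKM. These followed the same order of replicates, and the ranges of Rpl8, Rpl32, Rps26 and Rplp0 overlapped.

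Rpl4, a protein of the wall of the exit tunnel, was at 601, 563 and 617 FPKM and was the sole gene of the 10 highest with replicate 4 on top. Rpl29, a small protein of the large subunit, closed the group at 483, 516 and 477 FPKM. The replicates of Rpl4 and Rpl29 did not overlap.

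The 10 lowest members comprised 3 paralogs described with the other paralogs and 7 core proteins. Rps13, a core protein of the small subunit, was at 0.62, 0.80 and 0.92 FPKM, which amounts to an estimated 46, 52 and 84 reads. Rps27, a zinc-finger protein of the small subunit, was at 1.34, 1.36 and 1.93 FPKM, an estimated 25, 22 and 44 reads. Rpl24, which bridges the subunits, was at 2.73, 2.39 and 3.16 FPKM. All 3 were listed under 4 FPKM in every replicate, although ribosomes carry each of these proteins, and the levels of Rps13 and Rps27 rest on few reads.

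Rps23, a decoding-centre protein, was at 3.80, 3.04 and 3.23 FPKM. Rpl5, which binds the 5S ribosomal RNA, was at 3.35, 2.85 and 4.21 FPKM. Rpl17, near the exit tunnel, was at 3.5, 3.05 and 5.07 FPKM. The ranges of these 3 genes overlapped, and replicate 3 was the lowest in each.

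Rpl23a, at the mouth of the exit tunnel, was at 3.84, 3.42 and 4.91 FPKM. Its range lay inside that of Rpl17. The distances between the lowest and the highest members were far larger than those between replicates, since the largest coefficient of variation (CV, the SD as a percent of the mean) between replicates of any member at 1 FPKM or more was 34.1%.

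By subunit, the median large-subunit member was lower than the median small-subunit member in every replicate. The large-subunit medians were 31.6, 35.0 and 28.8 FPKM in replicates 1, 3 and 4, and the small-subunit medians were 99.5, 106.9 and 95.1 FPKM. The ratio of the medians was 0.317, 0.327 and 0.303 (mean 0.316 ± 0.012, SD, n = 3). The sums went the other way, with 1.22, 1.26 and 1.22 times as much FPKM over the 51 large-subunit members as over the 32 small-subunit members. Among the 1000 highest genes were 19 large-subunit and 18 small-subunit members. Without the paralogs the ratio of medians, from the means over replicates, was 0.386 for FPKM, 0.525 per kilobase of transcript and 0.464 per kilobase of transcript found once in the genome, a length described further on, and all of the paralogs but Rps27l belong to the large subunit.

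The stalk proteins form a complex of P0 with P1 and P2, but their messages were listed apart. Rplp0 and Rplp1 were among the 10 highest members, whereas Rplp2, the partner of P1, was at 35.0, 44.0 and 25.9 FPKM. The Rplp1 to Rplp2 ratio was 55.5, 55.8 and 62.7 (mean 58 ± 4.1, SD, n = 3), and the Rplp1 to Rplp0 ratio was 2.85, 3.05 and 2.89 (mean 2.93 ± 0.10). The joined exons of Rplp2 are 4.92 times its chosen transcript, and those of Rplp1 are no longer than its transcript. From the means, the Rplp1 to Rplp2 ratio was 57.4 for FPKM, 11.7 per kilobase of transcript and 10.8 per kilobase of transcript found once. Rplp2 has a copy elsewhere in the genome with a high level, described with the copies.

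The proteins that bind MDM2 when ribosome assembly is disturbed were also unequal. Rpl5 has been given above, and Rpl11, its partner in the 5S particle, was at 8.62, 8.84 and 8.02 FPKM. Rpl23, which also binds MDM2, was at 95.0, 87.4 and 92.2 FPKM. The level of Rpl5 was below that of Rpl11 in each replicate, at a ratio of 0.389, 0.322 and 0.525, and Rpl23 was above both. From the means the ratio of Rpl5 to Rpl11 was 0.409 for FPKM, 0.242 per kilobase of transcript and 0.138 per kilobase of transcript found once.

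Members whose mouse mutants have pigment, spotting or skeletal phenotypes were spread over a 14.0-fold range of mean levels. Rps19 and Rps20, mutated in dark skin mice, were at 36.6, 38.4 and 32.8 FPKM and at 37.9, 43.9 and 34.5 FPKM. Rps6, the phosphorylated small-subunit protein, was at 6.81, 6.96 and 6.57 FPKM. Rps7 was at 28.0, 32.4 and 24.8 FPKM. The levels of Rps19 and Rps20 overlapped, and Rps6 was below them in every replicate.

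Rpl24, mutated in belly spot and tail mice, has been given above. Rpl27a, mutated in sooty foot ataxia mice, was at 11.7, 9.91 and 12.1 FPKM. Rpl38, mutated in tail short mice, was at 5.03, 5.42 and 4.6 FPKM. Over these 7 genes the means ran from 2.76 to 38.7 FPKM with a median of 11.2 FPKM, and none was among the 1000 highest, a list that holds 37 of the 83 members and 4.41% of all genes.

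Of the ribosomal proteins made as fusions to ubiquitin-like sequences, Rps27a, whose precursor carries ubiquitin, was at 6.91, 8.58 and 6.83 FPKM. Outside the symbol rule, Fau, the precursor of the small-subunit protein eS30, was at 13.1, 14.7 and 10.4 FPKM. Gnb2l1, which encodes the small-subunit scaffold RACK1, was at 655, 771 and 564 FPKM, within the range of the 10 highest members.

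The listed paralogs, genes that arose from a member by duplication, differed widely from their parent genes. Rps27l, a paralog known as a p53 target, was at 147, 160 and 137 FPKM, above its parent Rps27 in every replicate. The ratio of Rps27l to Rps27 was 110, 118 and 70.9 (mean 99.5 ± 25, SD, n = 3). Rpl36al was at 45.9, 41.4 and 49.9 FPKM and its parent Rpl36a at 8.26, 10.3 and 9.03 FPKM, a ratio of 5.03 ± 0.88. In both pairs the paralog was above the parent without overlap.

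For the other pairs the parent was higher. Rpl7l1, a nucleolar relative of Rpl7, was at 28.0, 27.6 and 28.8 FPKM and Rpl7, a large-subunit protein that binds ribosomal RNA, at 224, 201 and 227 FPKM, a ratio of 0.130 ± 0.0065. Rpl22l1 was at 8.69, 7.36 and 8.43 FPKM and its parent Rpl22, an RNA-binding protein of the large subunit, at 64.2, 69.1 and 61.4 FPKM, a ratio of 0.126 ± 0.017. The replicates of paralog and parent did not overlap in either pair. The size of these ratios depended on the length behind the level. From the means, they were 0.056 for Rpl7l1 and 0.020 for Rpl22l1 per kilobase of transcript. Per kilobase of transcript found once they were 0.029 and 0.043.

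The paralogs known from muscle or testis were at or near zero. Rpl3l, a muscle paralog of Rpl3, was listed at 0, 0 and 0.02 FPKM, and Rpl3 at 74.4, 75.1 and 72.6 FPKM. The testis paralogs Rpl10l and Rpl39l were listed at 0 in every replicate, where 3 reads would have given 0.0546, 0.0627 and 0.0443 FPKM for Rpl10l and 0.0671, 0.0770 and 0.0545 FPKM for Rpl39l. Their parents Rpl10 and Rpl39 were at 9.80, 10.2 and 10.6 FPKM and at 79.5, 85.7 and 70.8 FPKM. The 3 paralogs had 98.8%, 85.7% and 98.9% of their transcript stretches found once in the genome in the search described next.

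Because the authors counted reads with a tool that by default leaves out reads aligned to several places, the number of exact copies of each transcript in the genome was measured. Every stretch of 75 bases of 1 transcript per gene was searched on both strands of mm9, and the percent of stretches with no second exact place was recorded. Members had a median of 44.0% of stretches found once, from 0.37% in Rps27 to 99.0% in Rps3, whereas the median over protein-coding genes was 99.1%. Of the 83 members, 70 (84.3%) had under 80% of stretches found once, beside 11.3% of protein-coding genes. Members shared at least 1 stretch with a median of 6 loci outside their own gene, and Rpl7a, Rpl21, Rps2 and Rpl29 shared stretches with 66, 62, 56 and 54 loci. Rpl7l1 shared stretches with 1294 loci although 93.2% of its stretches were found once.

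Within the coding sequence the copies covered more. The median member had 18.7% of coding stretches found once, against 98.7% for protein-coding genes. In 25 members (30.1%) no coding stretch was found once, beside 1.33% of protein-coding genes. Those 25 members had mean levels from 0.78 to 60.9 FPKM with a median of 7.44 FPKM, and none was among the 1000 highest genes. They included all 7 core proteins named above among the lowest, and Rps6, Rpl11, Rpl27a, Rpl38 and Rps27a. The 51 members outside the paralog list with at least 1 coding stretch found once had levels from 4.79 to 2007 FPKM with a median of 118 FPKM, and 36 of them were among the 1000 highest.

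Over the 76 members outside the paralog list, Spearman's rho of mean level with the percent of stretches found once was 0.59 for the transcript and 0.79 for the coding sequence. With the 7 paralogs included (n = 83) it was 0.42 and 0.56. These are descriptions across genes of the same libraries, and genes are not independent replicates. The part of the copies in these levels was not tested. The rescaling given next uses the same percent found once, so it is not a separate test. The 26 members with under 25% of transcript stretches found once had a median of 10.6 FPKM, from 0.78 to 257 FPKM for Rpl36, and the 31 with at least 50% had a median of 147 FPKM, from 3.47 FPKM for Rpl5 to 2007 FPKM for Rplp1. The groups overlapped. Rpl36 shared a stretch with 5 loci and Rpl5 with 6. No coding stretch of Rpl5 was found once, against 11.5% of those of Rpl36. Rps28 and Rpl37 went the other way. Rps28 had no coding stretch found once at 60.9 FPKM, and Rpl37 had 20.9% at 11.6 FPKM.

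**Figure D2:**
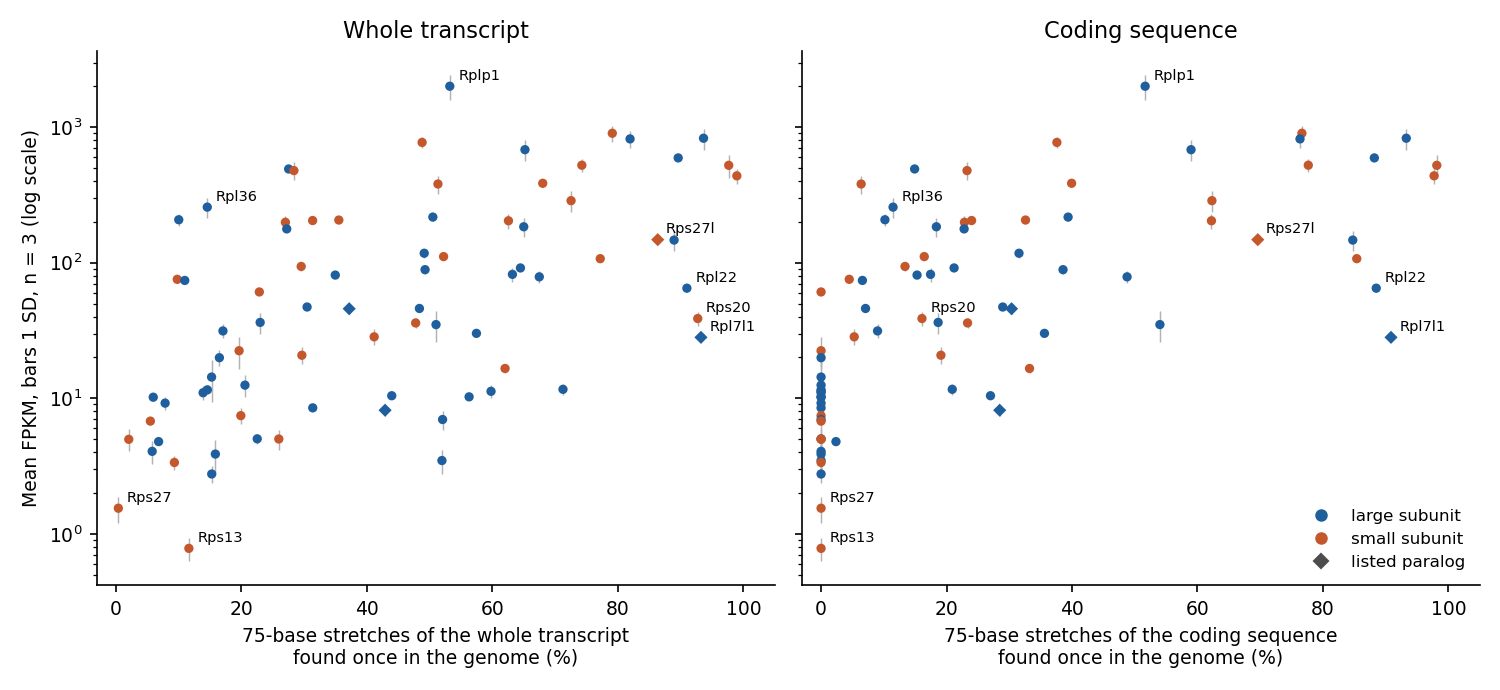
Mean FPKM (log scale, bars 1 SD over 3 replicates) against the percent of 75-base stretches found once in the genome, for the whole transcript on the left and the coding sequence on the right, over the 80 members with a mean above 0.5 FPKM; diamonds are the listed paralogs. On the right, the 25 members at 0% lie between 0.78 and 60.9 FPKM, and members at 50% or more that are not paralogs lie between 35.0 and 2007 FPKM.

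When the reads behind each level were divided by the length of transcript found once, instead of the whole gene length, the members lay closer together. Over the 76 members outside the paralog list the SD of the log2 level, taken with no pseudocount, was 2.62 for FPKM as deposited, 2.53 per kilobase of transcript and 2.03 per kilobase of transcript found once. The ratio of the highest to the lowest was 2573, 1301 and 334 on the 3 scales. On the last scale, Rps27l stood at 0.618 times Rps27 in place of 95.9 times, and Rpl36al at 0.774 times Rpl36a in place of 4.97 times. Per kilobase of transcript the ratios were 157 and 3.73. Both orders were therefore reversed only by the length found once, and the Rps27 value rests on the few reads given above and on 0.37% of its stretches. The rescaled levels still ranged from 13.3 for Rpl5 and 17.9 for Rpl37, a zinc-finger protein of the large subunit, to 4435 for Rplp1. Large-subunit and small-subunit medians were then 311 and 670.

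Copies of members also have entries of their own in the tables. There were 55 genes whose symbol is a member's name or pattern with the ending -ps. Of these, 15 were at 1 FPKM or more in all replicates, beside 10011 of all 22698 genes. Another 4 of 55 counts the copies among the 1000 highest genes, a list that holds 4.41% of all genes. In 8 cases the copy was above its parent. The summed level of the 55 copies was 1734, 1986 and 1569 FPKM, in addition to 14006, 15720 and 12488 FPKM for the members. Reads cannot be assigned with certainty between a member and a near-identical copy, so the values of both are uncertain wherever such a pair is named.

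Coding sequences of these pairs differed at few positions. They are shown for 3 pairs in which the copy was listed far above the gene, over 41 bases centred on the base that differs, which is in capitals. Positions are counted from 1 at the A of the start codon, with the base of the gene before and the base of the copy after the position. The differences shown are A83G for Rplp2, A116T for Rpl23a and G266A for Rpl9.
Rplp2: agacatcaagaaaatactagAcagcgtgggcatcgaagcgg
Rplp2-ps1: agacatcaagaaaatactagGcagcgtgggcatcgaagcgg
Rpl23a: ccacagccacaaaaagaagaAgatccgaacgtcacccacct
Rpl23a-ps3: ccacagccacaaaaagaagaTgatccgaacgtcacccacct
Rpl9: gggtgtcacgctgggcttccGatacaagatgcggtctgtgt
Rpl9-ps6: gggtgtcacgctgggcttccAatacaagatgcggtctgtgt

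In mm9 the windows lie in coding exons at chr7:148633870-148633910 (plus strand, Rplp2, exon 2), chr12:76732203-76732243 (minus, Rplp2-ps1), chr11:77996378-77996418 (minus, Rpl23a, exon 2), chr14:34983936-34983976 (plus, Rpl23a-ps3) and chr19:32540756-32540796 (minus, Rpl9-ps6). The Rpl9 window spans the junction of exons 4 and 5, from chr5:65780822 to chr5:65781639 on the minus strand. The copies have a single exon where the genes have 5, 5 and 8. Over the whole coding sequence Rplp2 and its copy differed at 2 of 348 positions, Rpl23a and its copy at 1 of 471, and Rpl9 and its copy at 1 of 579.

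The copies in these pairs were listed higher. Rplp2-ps1 was at 375, 482 and 305 FPKM, 11.1 ± 0.5 times Rplp2 (SD, n = 3). Rpl23a-ps3 was at 116, 128 and 103 FPKM, beside 3.42 to 4.91 FPKM for Rpl23a. Rpl9-ps6 was at 52.4, 49.4 and 54.2 FPKM, and Rpl9, a large-subunit protein near the factor-binding site, was at 5.0, 4.5 and 4.86 FPKM. In none of the 3 pairs did gene and copy overlap. These ratios depended on the length behind the level. Per kilobase of transcript the copies stood at 2.25 times Rplp2, 18.9 times Rpl23a and 2.60 times Rpl9, and per kilobase of transcript found once at 1.43, 4.73 and 0.854 times, so that the order of Rpl9 and its copy turned on the last scale.

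In 2 of the other pairs both were high. Rps26-ps1 was at 811, 885 and 763 FPKM, 1.06 ± 0.02 times Rps26, from which it differed at 2 of 348 coding positions. Rpsa-ps10 was at 265, 319 and 234 FPKM beside 377, 441 and 325 FPKM for Rpsa, the laminin receptor protein of the small subunit, with 6 of 888 positions different. Within each pair gene and copy kept the same order of replicates.

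Rps13-ps1 was at 6.67, 6.40 and 4.30 FPKM, above Rps13, with 2 of 456 positions different. Rpl10-ps3 was at 18.6, 22.4 and 20.2 FPKM, above Rpl10, with an identical coding sequence over 645 positions. It had 0% of its stretches found once, so no level per kilobase of transcript found once could be given for it. Rps12-ps3 (0% found once) and Rpl27-ps3 (0.25%) also had reads, with means of 7.72 and 11.5 FPKM. Rps19-ps1 and Rps19-ps2, also with 0% found once, were listed at 0 FPKM. How reads aligned to several places entered these values was not tested. Per kilobase of transcript Rps13-ps1 stood at 3.14 times Rps13 and Rpl10-ps3 at 0.779 times Rpl10, below it. By contrast, the paralog pairs differ at many positions: Rps27 and Rps27l at 61 of 255 and Rpl36a and Rpl36al at 39 of 321.

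**Figure D3:**
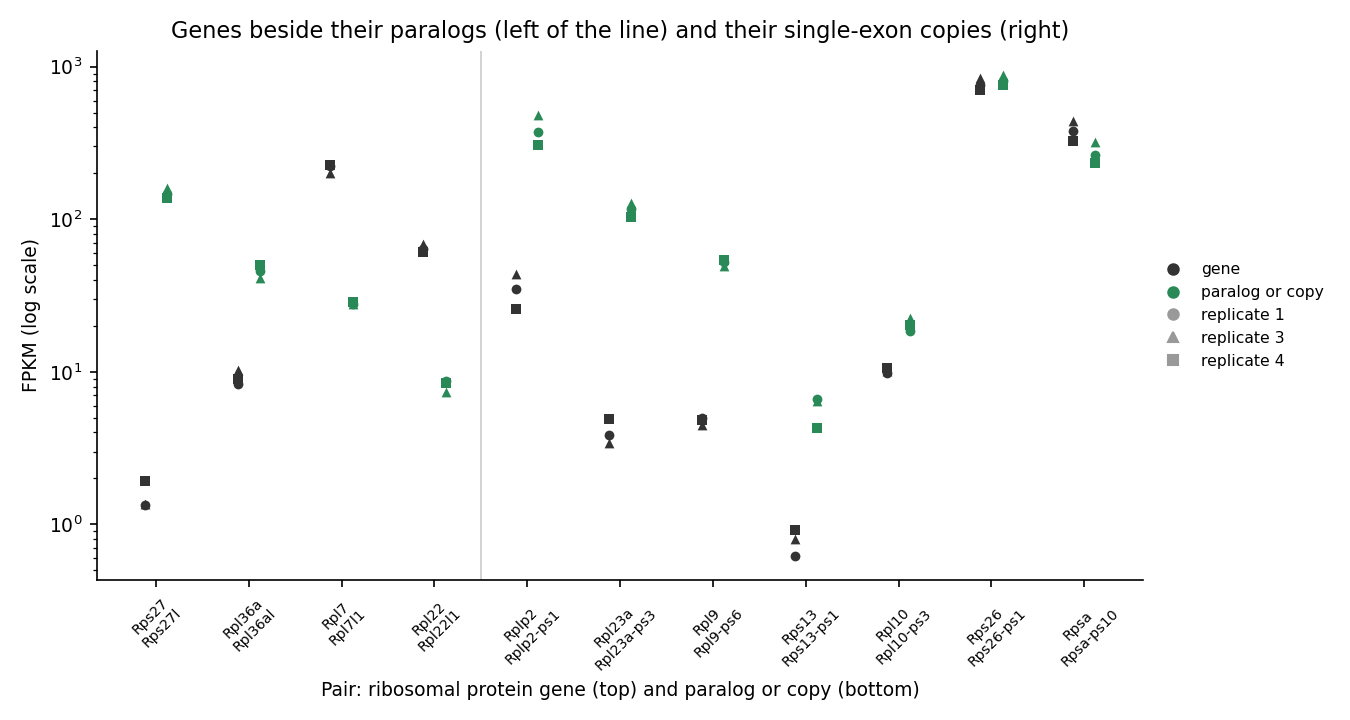
FPKM on a log scale of a member and its paralog (4 pairs left of the line) or its single-exon copy (7 pairs right of the line), with a symbol for each replicate. Rps27l and Rpl36al lie above their parents and Rpl7l1 and Rpl22l1 below, and 6 of the 7 copies lie above the gene, the exception being Rpsa-ps10.

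Gene length and exon overlap were also recorded, and their part in these levels was not tested. The joined exons of the annotated gene were over 2 times the length of the chosen transcript in 37 members and up to 9.78 times in Rps15a, a small-subunit protein at 16.2, 18.1 and 15.5 FPKM. Exons of another gene on the same strand overlapped those of 16 members. In 14 of these the overlapping genes were small nucleolar RNA genes only, and in Rpl19 it was Gm11629. The overlap exceeded 20% of exon bases in 1 member, Rpl13a (41.3%), where the protein-coding gene Flt3l (a cytokine) covered 34.3% and 3 small nucleolar RNA genes the rest. Rpl13a is a large-subunit protein that has been linked to translational silencing and was at 145, 173 and 123 FPKM.

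The spread between replicates was then taken gene by gene. The median CV of the 79 members at 1 FPKM or more was 10.5%, beside 11.4% over all 10011 genes. The lowest CV was 1.74% in Rpl3, a protein near the peptidyl transferase centre. The highest CV was in Rpl10a, a large-subunit protein of the L1 stalk, at 12.6, 10.6 and 19.9 FPKM (34.1%).

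Next came Rpl17 (27.4%), whose values are given above, and Rps16, a protein of the head of the small subunit, at 22.7, 28.3 and 16.3 FPKM (26.8%). Rplp2 (25.9%) and Rps27 (21.7%) completed the 5 largest. Rpl10a and Rpl17 were highest in replicate 4 and lowest in replicate 3, whereas Rps16 and Rplp2 were highest in replicate 3 and lowest in replicate 4. The 5 genes had from 0.37% to 51.0% of their transcript stretches found once.

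Few members differed by over 1.5-fold between replicates. Between replicates 3 and 4, Rpl10a and Rpl17 were higher in replicate 4 (2.53% of the members, beside 12.2% of all genes), and Rplp1, Rplp2 and Rps16 were higher in replicate 3 (3.80%, beside 6.38%). Between replicates 1 and 4, Rpl10a was higher in replicate 4 (1.27%, beside 2.34%), and no member was higher in replicate 1 (beside 1.18%). Between replicates 1 and 3, no member passed in either direction (beside 0.11% of all genes higher in replicate 3 and 2.04% higher in replicate 1).

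The direction of the small differences was shared by many members. Of the 79, 50 (63.3%) were highest in replicate 3 and lowest in replicate 4, beside 39.5% of all genes, and 14 (17.7%) were highest in replicate 4 and lowest in replicate 3, beside 37.2%. On the log2 scale with 1 FPKM added, the median ratio of replicate 4 to replicate 3 was -0.17 over members and -0.02 over all genes. For replicate 4 to 1 the medians were -0.10 and -0.01, and for replicate 3 to 1 they were 0.09 and 0.01. The median of members lay 0.16 below that of all genes for replicate 4 to 3. When each replicate was rescaled to the same sum, the median of all genes for replicate 4 to 3 moved by 0.13 to 0.11. That of members became -0.05. Such rescaling shifts every gene by nearly the same amount, so it could not change which median was lower. For replicate 4 to 3, the SD of the ratio was 0.31 among members and 0.39 among all genes. It describes the scatter between genes and not the error of a median.

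GC content moved with these ratios. For replicate 4 to 3, Spearman's rho of the log2 ratio with the GC percent of the transcript was -0.51 over the 79 members. For replicate 4 to 1 it was -0.45, and for replicate 3 to 1 it was 0.46. Over all genes with a transcript the values were -0.77, -0.69 and 0.72. The 50 members highest in replicate 3 and lowest in replicate 4 had a median GC of 52.9%, and the 14 with the opposite order had 49.6%. The median GC was 51.2% over members and 50.9% over all genes at 1 FPKM or more. The part of GC content in the difference between replicates was not tested.

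**Figure D4:**
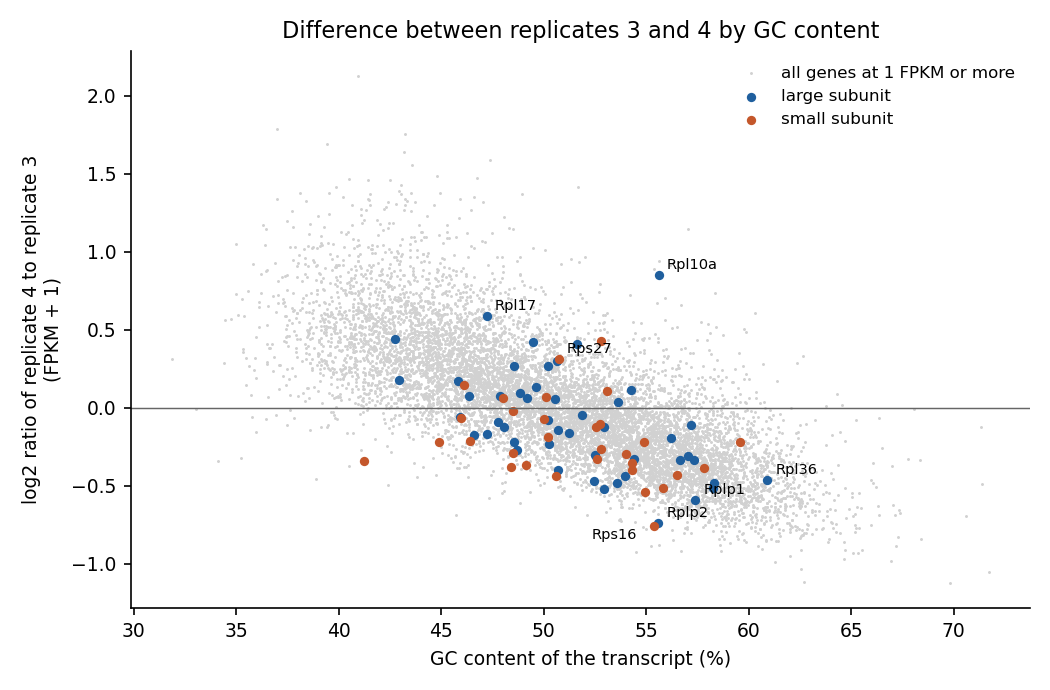
log2 ratio of replicate 4 to replicate 3 (FPKM plus 1) against the GC percent of the transcript, with grey points for all genes at 1 FPKM or more in all replicates and coloured points for the 79 members. Members follow the fall of the grey points, and Rpl10a stands above them at 55.6% GC with a log2 ratio of 0.85.

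Genes that act with the ribosome gave a scale for the members. Of all 22698 genes, 10011 were at 1 FPKM or more in all replicates, and the 1000 highest make up 4.41%. Of 13 translation factors and other messages known to carry TOP tracts, all were at 1 FPKM or more and 9 were among the 1000 highest, from 5.15 FPKM for Hnrnpa1 (an RNA-binding protein) to 2501 FPKM for Eef1a1 (the elongation factor that delivers aminoacyl-tRNA), with a median of 89.3 FPKM. Of 20 genes of ribosome assembly and RNA polymerase I, all were at 1 FPKM or more and none was among the 1000 highest, from 2.13 FPKM for Taf1b (an RNA polymerase I factor) to 45.3 FPKM for Bop1 (a large-subunit assembly factor), with a median of 13.5 FPKM. Of 6 genes that control TOP messages, from Rps6kb1 (S6 kinase, 5.03 FPKM) to Eif4ebp1 (a repressor that binds the cap-binding factor eIF4E, 129 FPKM), 1 was among the 1000 highest. The median percent of transcript stretches found once was 81.2%, 97.8% and 98.9% in the 3 lists, above the 44.0% of the members. In the first list it ran from 0% for Hnrnpa1 to 99.5% for Eif3f (a translation initiation factor), with 46.0% for Eef1a1. Hnrnpa1, the lowest gene of that list, was thus also the one with no stretch found once. The part of copies in its level was not tested.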

How the data were processed

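RNA from 3 melan-a cultures (replicates 1, 3 and 4) was sequenced from stranded poly(A) libraries, with 3 lanes per replicate. The authors trimmed the 10 bases at the 5′ end of each read, aligned to mm9 with STAR 2.3.0e, removed ribosomal RNA reads and counted reads over Ensembl genes with HTSeq 0.5.3p3. The deposited values are FPKM scaled by the TMM method, with 2 decimals. The gene length behind the FPKM and the read length are not given in the sources used here. Library sizes were read from the steps between values of short genes with 1 transcript. In 7 to 9 short genes with several transcripts, values lay nearest to whole reads when joined exons were taken as the length. The margin was small in replicate 1, with a mean distance of 0.125 reads against 0.134 for the longest transcript. These distances were 0.126 against 0.195 in replicate 3 and 0.088 against 0.202 in replicate 4.

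Symbols, types, exons and transcripts came from GENCODE vM1 on NCBIM37 (mm9), which is Ensembl 65 while the authors counted over a later Ensembl release, so that lengths, estimated reads and floors may differ for some genes, and promoters from RefSeq on GRCm38.p6. Per gene, 1 transcript was chosen (a complete coding sequence, a CCDS tag, then the shortest). Members, gene lists and named genes (10 highest, 10 lowest, 5 largest CVs, listed paralogs and complexes) were chosen with earlier results of these data known. A pseudocount of 1 FPKM was used on log scales, except for the SDs that set FPKM beside levels per kilobase of transcript. Stretch counting, library sizes, CVs, ratios and rank correlations were tested on simulated data. Python 3.11.15, NumPy 2.4.6, SciPy 1.17.1 and Numba 0.67.0 were used. The labels call the replicates separate lines, but the spread between 3 samples may be partly technical. Alternatives were leaving out each replicate, rescaling, pseudocounts, filters and stretch lengths; those on the coding sequence, the paralogs in the rank correlation and the transcript length were added after seeing the data. Protein sequences were not used here. Some genes are not reported here by name.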

Additional observations from a re-analysis of the deposited data

How the results depend on the processing

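No paired analysis was possible because all samples belong to a single group. Leaving out each replicate in turn moved the median member between 43.7 and 46.6 FPKM, around 45.8 FPKM over all replicates. The median member stood at 121.8 when replicates were rescaled to a sum of 1000000, at 136.1 when mitochondrially encoded genes were left out of that sum, at 54.0 FPKM without the listed paralogs, at 47.1 FPKM with members at 1 FPKM or more, at 147.0 FPKM with the 13 members that had at least 80% of stretches found once, and at 117.8 per kilobase of transcript. The share of the summed FPKM was 4.15% without mitochondrially encoded genes and 0.96% for those 13 members. The ratio of the large-subunit to the small-subunit median, 0.312 for the mean over replicates, was 0.386 without paralogs, 0.332 with members at 1 FPKM or more, 0.222 for the 13 members and 0.260 per kilobase of transcript. Without paralogs it was 0.525 per kilobase of transcript and 0.464 per kilobase of transcript found once, and it was below 1 in each of these.

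The SD of the log2 level, 2.63 for the mean over replicates, was 3.02 with a pseudocount of 0.1, 2.49 without paralogs (with 1 FPKM added, against 2.62 with nothing added), 2.40 with members at 1 FPKM or more and 3.73 for the 13 members, of which 3 were listed at or near 0. The number of members that differed by over 1.5-fold was 1 between replicates 1 and 4 and 5 between replicates 3 and 4. With rescaling these were 3 and 9, and with mitochondrially encoded genes also left out they were 4 and 9. At a fold of 2 they were 0 and 0. Shares of all genes are not given for these alternatives, and rescaling shifts every gene by nearly the same amount. The counts under them are therefore not a result about the members. Spearman's rho of level with stretches found once, 0.417 over 83 members, was 0.417 with the median over replicates, 0.318 and 0.491 with stretches of 50 and 100 bases, 0.560 for the coding sequence, 0.592 without paralogs and 0.373 per kilobase of transcript. Where these values moved, the cause was not tested.

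The count of members among the highest genes, the CV, the rank correlations with GC content and the signs of the median ratios between replicates kept within their spread or direction under the alternatives run for them. Exact copies were searched, so that a copy with 1 mismatch in each stretch counts as none. Without the read length, the share of reads lost cannot be given.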
